A study of Caenorhabditis elegans with 4 samples.

Results

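Dense clusters of CBP-1 peaks were picked out of the series-wide peak list: members were chosen by the measured positions of the called peaks, and by nothing else. CBP-1 is the Caenorhabditis elegans member of the CBP/p300 family, and its binding was mapped by ChIP-seq, in which chromatin is immunoprecipitated and sequenced and enriched regions are called as peaks. Neighbouring peaks on the 6 nuclear chromosomes were joined when the next start lay 5000 bp or less past the previous end. A chain of 5 or more peaks was called a run, and its peaks are the members described here. There were 147 runs with 958 members, out of 6289 nuclear peaks in all, or 15.2% (Wilson 95% interval 14.4 to 16.1). The comparison class was the 2379 isolated peaks, which had no other peak within 5000 bp. The remaining 2952 peaks lay in shorter runs of 2 to 4.

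Proteins of the CBP/p300 family are histone acetyltransferases that transcription factors bring to promoters and enhancers, where they acetylate histone tails, among them lysine 27 of histone H3. They are widely used as marks of active regulatory DNA. In mammals, tight groups of enhancers that carry such co-activators have been described as super-enhancers. In the compact genome of the worm, genes lie close together and regulatory sites of neighbouring genes can be near one another. No annotation of the genome build of the files was used, so runs are described by position, and which genes they hold was not analysed here.

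The chromatin came from wild-type N2 embryos of mixed stages, from a population of males and hermaphrodites, kept at 20 °C, with no allele or treatment beyond the wild type. Embryos were taken from gravid adults of a liquid culture by bleaching, and fixed whole, so each peak is an average over cell types and stages. A rabbit polyclonal antibody against CBP-1 was used. The 2 CBP-1 ChIP samples each have their own peak list, with 3121 and 1994 nuclear peaks in replicates 1 and 2, and the series-wide list belongs to no single sample. The 2 input samples were not analysed here. Positions are in WormBase WS220. Depth is unknown, because the lists give no read counts. Each peak has a score from the authors whose scale is not stated, and scores were compared only within a list. Both replicates are the only ChIP samples of the series, so overlap of a series-wide peak with a replicate list is not independent evidence of the peak. The labels do not say whether the replicates were separate cultures.

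Runs were short stretches with many gaps. A run spanned from 2328 to 32349 bp, with a median of 9273 bp (quartiles 7425 and 12471). The 147 spans added up to 1.51 Mb, 1.51% of the 100.3 Mb that the lists span. Within them 366 kb lay inside peaks, 24.2% of the spans and 17.2% of all bases in nuclear peaks. The median run had 0.640 peaks per kb, against 0.0627 per kb over the whole span of the lists, a contrast that the rule itself set. Most runs were close to the lower limit of size: 69 held 5 peaks, 65 held 6 to 9, and 13 held 10 or more. These 13 contained 174 members. Single runs held 18 and 26 peaks.

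The 811 gaps inside runs had a median of 890 bp (quartiles 371.5 and 2185.5), from 38 to 5000 bp. Of these gaps, 57 (7.03%) were 100 bp or less and 264 (32.6%) were 500 bp or less, so part of the density came from peaks that nearly touched. In runs of 2 to 4 the 1761 gaps had a median of 1597 bp (quartiles 688 and 2883). At the edges of the rule, 36 gaps in 31 runs came within 500 bp of the upper limit, and 7 gaps that flanked a run exceeded it by less than 500 bp. Just outside the rule on size were the 132 runs of 4, whose peaks had medians of 8.54 for the score and 283.5 bp for the width. Just inside it, the 69 runs of 5 had medians of 9.10 and 292 bp.

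Peaks in runs were somewhat wider than isolated peaks and were not stronger. Their median width was 291 bp (quartiles 205 and 422) against 245 bp (191 and 343) for isolated peaks. Of the members 57.7% (54.6 to 60.8) were wider than the list's median of 259 bp, where 49.7% of all nuclear peaks were, against 44.5% (42.5 to 46.5) of isolated peaks. The difference was 13.2 percentage points (Newcombe 95% interval 9.47 to 16.9), and members had the wider median on 6 of 6 chromosomes. Width shortens gaps, and so it entered the rule. Of the 43 nuclear peaks wider than 2000 bp, 7 were members and 16 were isolated, close to the shares of 15.2% and 37.8% that these classes had of all nuclear peaks.

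The median score was 8.36 (quartiles 4.90 and 16.7) in runs and 9.18 (5.42 and 18.65) among isolated peaks. Of the members, 47.4% (44.2 to 50.6) scored above the list's median of 8.81, where 50.0% of all nuclear peaks did, against 52.2% (50.2 to 54.2) of isolated peaks. That is a difference of -4.77 points (-8.50 to -1.02), and the median score of members was the lower on 6 of 6 chromosomes. The deficit was largest in the runs with the most peaks, although one of these had a median score of 46.4. In runs of 10 or more the median was 6.04 and 35.1% (28.4 to 42.4) scored above the list's median, a difference of -17.1 points from isolated peaks (-24.1 to -9.49). In runs of 5 to 9 the difference was -2.04 points (-6.06 to 1.99), an interval that includes 0. Without the runs of 26 and 18 peaks, runs of 10 to 14 still differed from isolated peaks by -13.7 points (-21.9 to -4.89). At the top of the scale there was no deficit: 11.2% of members and 8.91% of isolated peaks were in the strongest 10% of the list, with scores of 36.75 or more. The direction was not shared by the replicate lists. When runs were formed by the same rule within one replicate, run peaks lay above their list's median more often than isolated ones, by 4.25 points in replicate 1 (-3.77 to 12.1) and by 12.8 points in replicate 2 (4.09 to 21.0). All these intervals cover counting of peaks only. Peaks of 1 run share a neighbourhood, so the intervals are too narrow, and no test was made, because scores and positions came from the same peak calling.

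Support from the replicates was uneven. Of the members, 539 or 56.3% (53.1 to 59.4) shared 1 bp or more with a replicate 1 peak, where 50.6% of all nuclear peaks did, against 47.5% (45.5 to 49.5) of isolated peaks. Replicate 2 leaned the other way. Of the members, 211 or 22.03% (19.5 to 24.8) overlapped a replicate 2 peak, where 26.1% of all nuclear peaks did, against 28.6% (26.8 to 30.4) of isolated peaks. The differences were 8.76 points (5.02 to 12.5) for replicate 1 and -6.56 points (-9.68 to -3.30) for replicate 2, and each had the same sign on 6 of 6 chromosomes. Overlap with both lists was found for 187 members or 19.5% (17.1 to 22.2), where 21.8% of all nuclear peaks had it, against 22.7% (21.1 to 24.4) of isolated peaks. That difference, -3.18 points (-6.12 to -0.08), was negative on 4 of 6 chromosomes and became -2.35 points (-5.37 to 0.84) without the runs of 26 and 18 peaks. Neither list overlapped 41.2% of members, where 45.2% of all nuclear peaks had no overlap, and 46.6% of isolated peaks. Replicate 1 alone overlapped 36.7% of members, 28.8% of all nuclear peaks and 24.8% of isolated peaks. Replicate 2 alone overlapped 2.51% of members, 4.28% of all nuclear peaks and 5.88% of isolated peaks. Part of this profile was shared by shorter runs. In runs of 4, replicate 1 overlapped 56.6% of peaks, about as many as among members. There replicate 2 overlapped 27.5% and both lists 24.1%, the latter above the share of isolated peaks. Replicate 2 overlapped 24.6% of peaks in runs of 3 and also 24.6% in runs of 5.

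The excess in replicate 1 depended on how overlaps were counted. One wide replicate 1 peak often reached several members of a run: the 539 overlapped members were touched by 489 replicate 1 peaks, while the 1130 overlapped isolated peaks were touched by 1141. When each replicate peak was counted only for the series-wide peak it overlapped most, replicate 1 held 50.1% (46.9 to 53.3) of members and 47.5% of isolated peaks, a difference of 2.61 points (-1.14 to 6.35). The deficit in replicate 2 was as large as before, with 21.9% (19.4 to 24.6) of members and 28.6% of isolated peaks, a difference of -6.66 points (-9.78 to -3.40). It was largest in runs of 10 or more, where 14.4% (9.93 to 20.3) of peaks overlapped replicate 2, and smaller in runs of 5 to 9, at 23.7%.

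**Figure D1:**
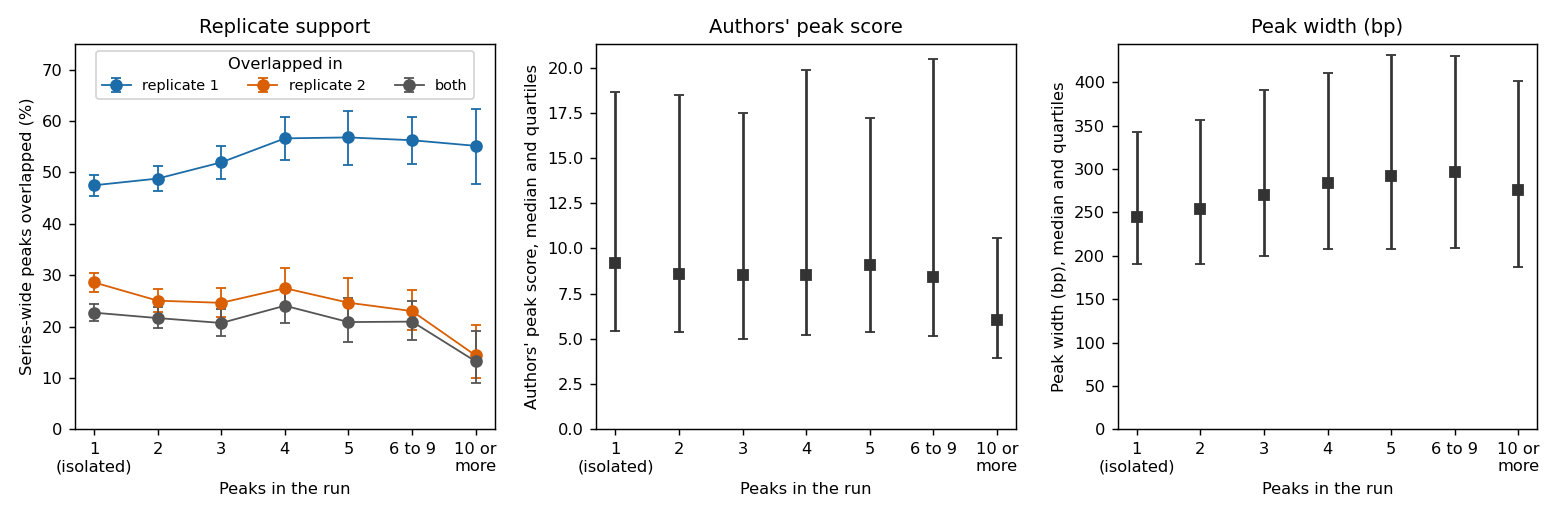
Left, the percentage of series-wide peaks overlapped by at least 1 bp in replicate 1, replicate 2 or both (y axis) by the number of peaks in the run (x axis), with Wilson 95% intervals; centre and right, the median score and the median width in bp, with bars from the lower to the upper quartile. Replicate 1 support is 47.5% for isolated peaks and 55.2% in runs of 10 or more, replicate 2 support is 28.6% and 14.4%, and the median score is lowest, 6.04, in the longest runs.

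Since strong and wide peaks were found in the replicates more often, support was also compared within 5 equal classes of score and of width. In the weakest class of score 18.5% (13.8 to 24.3) of 211 members overlapped replicate 1, against 4.35% (2.80 to 6.69) of 437 isolated peaks. Counting each replicate peak once, these were 7.58% (4.72 to 12.0) and 4.35%. In the middle class the shares in replicate 1 were 57.7% of 196 members and 35.4% of 489 isolated peaks, and 53.1% and 35.4% when each replicate peak counted once. In the strongest class they were 99.5% and 99.4%. For replicate 2 the members were below the isolated peaks in all 5 classes of score, with 1.42% against 4.81% in the weakest, 26.6% against 37.7% in the fourth and 74.7% against 78.2% in the strongest. By width, members were also below isolated peaks in replicate 2 in all 5 classes, by little in the narrowest (3.05% against 4.89%) and by most in the fourth, where 24.5% (19.2 to 30.8) of 208 members and 44.1% (39.7 to 48.7) of 460 isolated peaks overlapped. In the widest class these shares were 48.5% and 58.7%.

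At equal width, unlike at equal score, members had no general excess in replicate 1. From the second to the fourth class of width members were below isolated peaks, with 20.2% against 22.4%, 46.0% against 51.0% and 75% against 81.5%. They were above in the narrowest class, 14.6% against 5.09%, and in the widest, 96.2% against 94.1%. Counting each replicate peak once, members were below in all 5 classes, with 4.88%, 11.7%, 41.6%, 69.2% and 92.4% against the same shares of isolated peaks.

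Most runs carried at least some support. Of the 147 runs, 144 had a peak in replicate 1 and 111 had one in replicate 2, while 103 had a peak found in both. A run of 5 or more gives more chances of such a peak than a single peak does. In the median run 4 peaks overlapped replicate 1 and 1 overlapped replicate 2. Replicate 1 overlapped more of the run's peaks than replicate 2 in 125 runs, fewer in 8 and as many in 14. Replicate 1 also overlapped more of all nuclear peaks, 50.6% against 26.1%, and more of the isolated peaks, 47.5% against 28.6%. A lean to replicate 1 is thus not particular to runs. In 12 runs every peak was in at least 1 replicate list. All peaks were in both lists in a single run, chromosome I 4535826 to 4548527. No peak was in either list in a single run too, chromosome V 13018252 to 13026846, whose 5 peaks scored from 4.25 to 7.92. These last 2 runs were picked out with their values known.

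**Figure D2:**
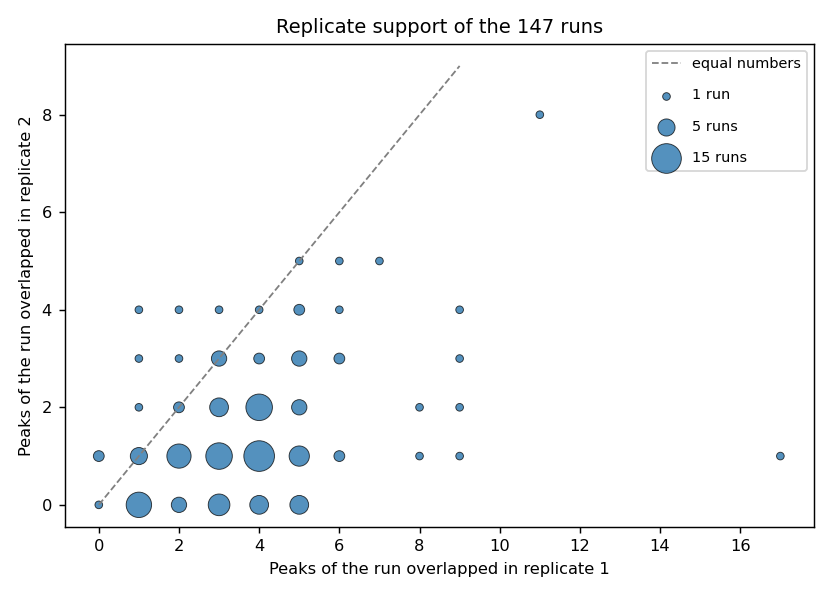
Each circle stands for the runs in which the given number of peaks overlapped replicate 1 (x axis) and replicate 2 (y axis), and its area is in proportion to the number of runs. Of the 147 runs, 125 lie below the dashed line of equal numbers, and the run of 26 peaks is the circle at 17 and 1. Over all nuclear peaks, replicate 1 overlapped 50.6% and replicate 2 overlapped 26.1%.

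The largest run, on chromosome II from 6821028 to 6853376, had 26 peaks over 32349 bp and was also the longest. Its peaks were weak to moderate, with scores from 4.05 to 28.3 and a median of 8.01, and 25.5% of the span lay inside peaks. Replicate 1 overlapped 17 of them and replicate 2 overlapped 1, the last peak, 6852990 to 6853376, which was also the strongest of the run. That peak scored 235.4 in replicate 1 and 53.1 in replicate 2. The widest peak of the run, 6838181 to 6839261, scored 380.6 in replicate 1 and had no replicate 2 peak. Replicate 1 by itself held 16 peaks here, enough to form its largest run.

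The second largest run had the lowest mean score of all 147, 3.95. On chromosome X, from 7351354 to 7361255, it packed 18 peaks into 9902 bp with a median gap of 286 bp. No peak scored above 5.85 and the median was 3.67. Replicate 2 had no peak there. Replicate 1 had a single peak, with a score of 51.2, which touched 2 of the 18.

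Most other large runs were of a similar make-up, many faint peaks with a few strong ones or none. An exception, on chromosome II at 13813508 to 13834619 with a median score of 46.4, is described below. On chromosome X, 16928126 to 16938384 held 14 peaks, of which one, 16929365 to 16930471, scored 132.8 and the other 13 scored between 2.80 and 11.9. That strong peak scored 2823 in replicate 1 and 684.9 in replicate 2, and no other peak of the run overlapped replicate 2. Also on X, 12171615 to 12195604 held 14 peaks, with 4 in both replicates that scored 51.6, 20.5, 45.8 and 46.7, the first and the last of them at the ends of the run. On chromosome II, runs of similar size had scores far apart. From 4572654 to 4585726 lay 13 peaks that scored between 2.77 and 10.3. From 10541848 to 10563672 lay 12 peaks, of which 10548617 to 10549689 scored 95.2 and 10563145 to 10563672 scored 165.7.

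A run of 13 peaks on chromosome V, 3435029 to 3455524, shows how 1 replicate peak can count for many members. Its median score was 3.50, and 8 of its peaks overlapped replicate 1. All 8 lay under 1 replicate 1 peak, which scored 158.8 and covered 6106 bp of the run. On X, 3455636 to 3472617 held 12 peaks with a highest score of 13.3, of which 4 overlapped replicate 1 and 1 replicate 2. Of the 4 runs of 10 peaks, the shortest lay on chromosome II, 9258032 to 9274269, with 5 and 1. On the remaining chromosomes the largest runs were smaller, and the shorter one is given where runs had equally many peaks, as on III and I. Chromosome IV had 10 peaks at 1895086 to 1918156 (highest score 21.4), chromosome III had 9 at 12607928 to 12617200 (109.1), and chromosome I had 8 at 7709270 to 7717026 (26.3).

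**Figure D3:**
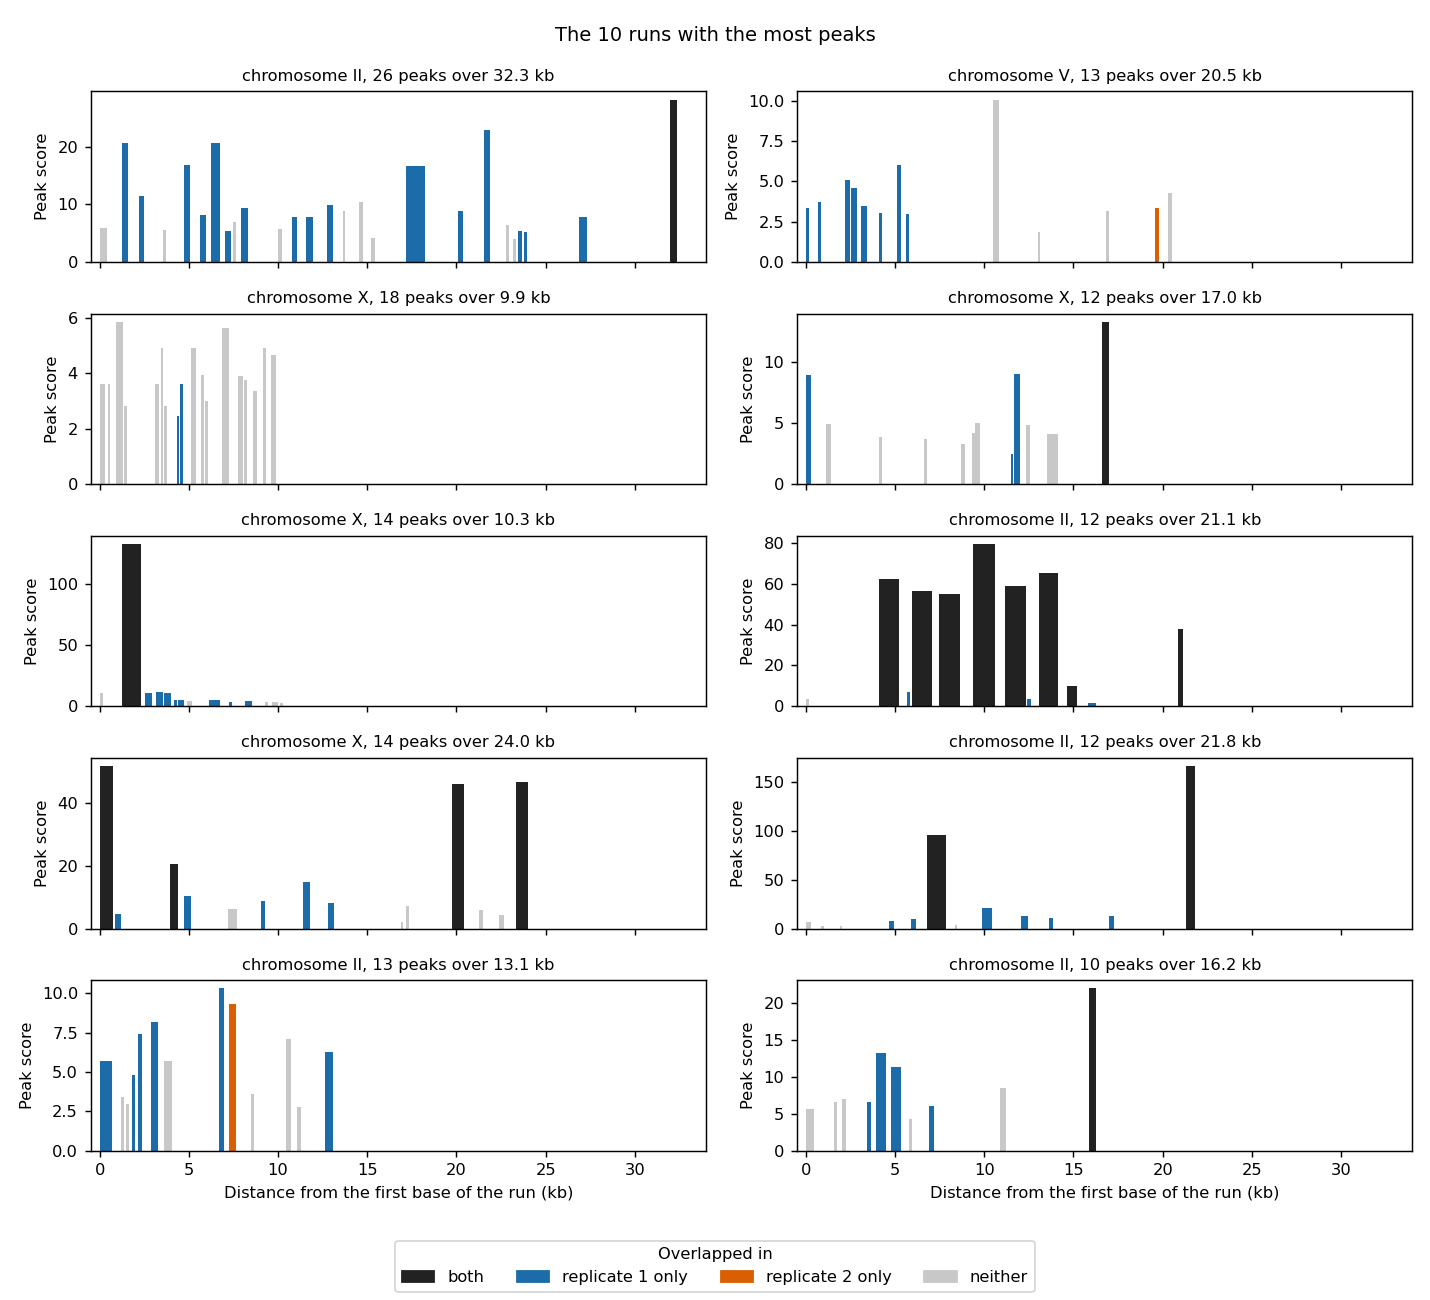
The 10 runs with the most peaks, each drawn from its first base (x axis, kb), with a bar per series-wide peak whose height is the authors' score (y axis, scaled per panel) and whose colour gives the replicate lists that overlap it. Peaks in both replicates are few in most panels, and the run of 12 on chromosome II that covers 21112 bp is the one with 8.

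One run had a regular series of strong peaks. On chromosome II, 13813508 to 13834619, 12 peaks covered 8758 bp, the most bases of any run, and 8 of them were in both replicates, again the most of any run. The 6 peaks that scored above 50 were alike in width and height: 1089 to 1204 bp wide, with scores from 54.99 to 79.4. In replicate 1 they overlapped peaks that scored from 881 to 1281, and in replicate 2 from 229 to 381. Their starts lay 1848, 1536, 1890, 1788 and 1877 bp apart, 1788 ± 146 bp (SD, n = 5 distances). Between and beside them were faint peaks that scored from 1.82 to 10.00, and a last peak at 13834345 to 13834619 with a score of 37.9. This spacing was noticed after the values were seen.

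The run with the highest mean score held the top pair of members. On chromosome V, 9086779 to 9096047, 6 peaks had a mean score of 93.8 and a median of 40.9. The peak at 9087371 to 9088774 scored 223.1, with 3100 in replicate 1 and 897 in replicate 2. Its neighbour at 9088820 to 9090440 scored 222.2, with 3100 in replicate 1 and 925 in replicate 2. The exact value 3100 recurred in other runs and in both replicate lists, though a replicate 1 peak in a run on X scored 3146. What it stands for is not stated, so equal values need not mean equal strength. All 6 peaks overlapped replicate 1 and 5 overlapped replicate 2; the exception, 9091325 to 9091691, was the weakest, at 8.43.

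The other runs of high mean score were less uniform in their support. On chromosome IV, 4715813 to 4728200, 5 narrow peaks of at most 490 bp had a mean of 51.1. Its strongest peak, 4725419 to 4725908, scored 84.2 and 728.8 in replicate 1 yet had no replicate 2 peak, while 2 weaker ones did. On chromosome III, 8794613 to 8802422 had a mean of 46.4, with all 5 peaks in replicate 1 and 3 in replicate 2. Also on III, 13061035 to 13072412 had 9 peaks with a mean of 41.7, led by 13070215 to 13071202 at 139.8 (1747 in replicate 1 and 539.3 in replicate 2). On chromosome I, 1832562 to 1842166 had a mean of 39.8, and here replicate 2 overlapped more peaks than replicate 1, 3 against 2.

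The run with the largest covered share was nearly continuous. On chromosome IV, 8572588 to 8581718, 93.6% of the 9131 bp lay inside 5 peaks, with gaps of 88 to 204 bp. The peaks were up to 3476 bp wide and scored from 23.6 to 51.3. Replicate 1 had 4 peaks there, with a highest score of 699.9, and replicate 2 had none. The next highest shares were 77.3% on chromosome III, 12367854 to 12370181, and 69.3% on chromosome V, 14830601 to 14833507, each with 5 peaks. On chromosome II, 11632666 to 11637510, the share was 65.4% over 6 peaks, 4 of them in both replicates. On chromosome V, 9338434 to 9347065, it was 61.3%, with a peak of 3132 bp that scored 22.5 beside one of 888 bp that scored 160.0. More than 50% was covered in 14 runs. The last 2 runs that held one of the 5 highest-scoring members were on chromosome II, 14399432 to 14408182, and on X, 5810242 to 5821298. The first had a peak of score 210.3, and 6 of its other 7 scored below 8. The second had one of score 161.2.

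Inside a run, strong and faint peaks lay side by side. The highest score of a run was 7.05 times the lowest in the median run (quartiles 5.08 and 15.3), at least 10 times in 58 runs and less than 3 times in 10. Differences between runs made up 26.9% of the variance of log2 score among members, and differences within runs the rest. Part of that 26.9% arises from sorting peaks into 147 small sets, whatever the sets are. That part was not estimated, so 26.9% is not the share due to runs. A peak from the strongest 10% of the list was present in 67 runs, and in 6 runs no peak scored above the list's median. Of the members, 11.2% were in that strongest 10% and 47.4% scored above the median. Each run has 5 or more peaks, so these counts and the ratios depend on its size. They were not compared with random sets of peaks. The strongest peak stood at one of the 2 ends in 59 of the 147 runs, or 40.1%. End peaks were 30.7% of all members, but that share gives large runs more weight. In a run of 5 the 2 ends are a larger part of the peaks. The 2 percentages are therefore not on the same footing, and they do not show a preference for the ends. The 294 end peaks had a median score of 9.04 and the 664 inner peaks 8.13, and 24.5% and 17.3% of them were in both replicates. Every run gives 2 end peaks, so large runs weigh more among the inner peaks. In runs of 10 or more the median score was 6.04 and 13.2% of peaks were in both replicates. The contrast of end and inner peaks was not separated from run size. Each end peak has a neighbour on 1 side only by construction.

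The replicate lists, taken by themselves, gave far fewer runs. Replicate 1 had 26 runs with 162 peaks, 5.19% of its list, and replicate 2 had 21 runs with 143 peaks, 7.17% of its list. The lists are shorter than the series-wide one, which by itself makes runs rarer. Of the 147 series-wide runs, 25 overlapped a replicate 1 run, 12 a replicate 2 run and 6 overlapped both, while 116 overlapped neither. The 6 were on chromosome I at 4535826 to 4548527, on chromosome II at 13813508 to 13834619 and 14244448 to 14251911, on chromosome III at 13061035 to 13072412, and on chromosome V at 8847385 to 8853996 and 9086779 to 9096047.

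Conversely, 25 of the 26 replicate 1 runs overlapped a series-wide run, but 12 of the 21 replicate 2 runs did. The other 9 replicate 2 runs held from 1 to 4 series-wide peaks. On chromosome III, 2497264 to 2501940, replicate 2 had 6 peaks where the series-wide list and replicate 1 each had 1, and the series-wide peak was 4843 bp wide. On chromosome IV, 11070926 to 11075481, there were 5 replicate 2 peaks against 1 series-wide peak of 5077 bp. On chromosome III, 13586414 to 13591936, 7 replicate 2 peaks of 873 bp in all stood against 3 series-wide peaks of at most 182 bp and no replicate 1 peak. At chromosome I 4535826 to 4548527, one of the 6 runs found in all 3 lists, the series-wide list had 5 peaks, replicate 1 had 7 and replicate 2 had 17. In these examples, other than 13586414 to 13591936 on chromosome III, the lists cut the same stretches into different numbers of peaks. The callers named in the files differ, and their part in these differences was not tested. These replicate runs were picked with their values known.

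**Figure D4:**
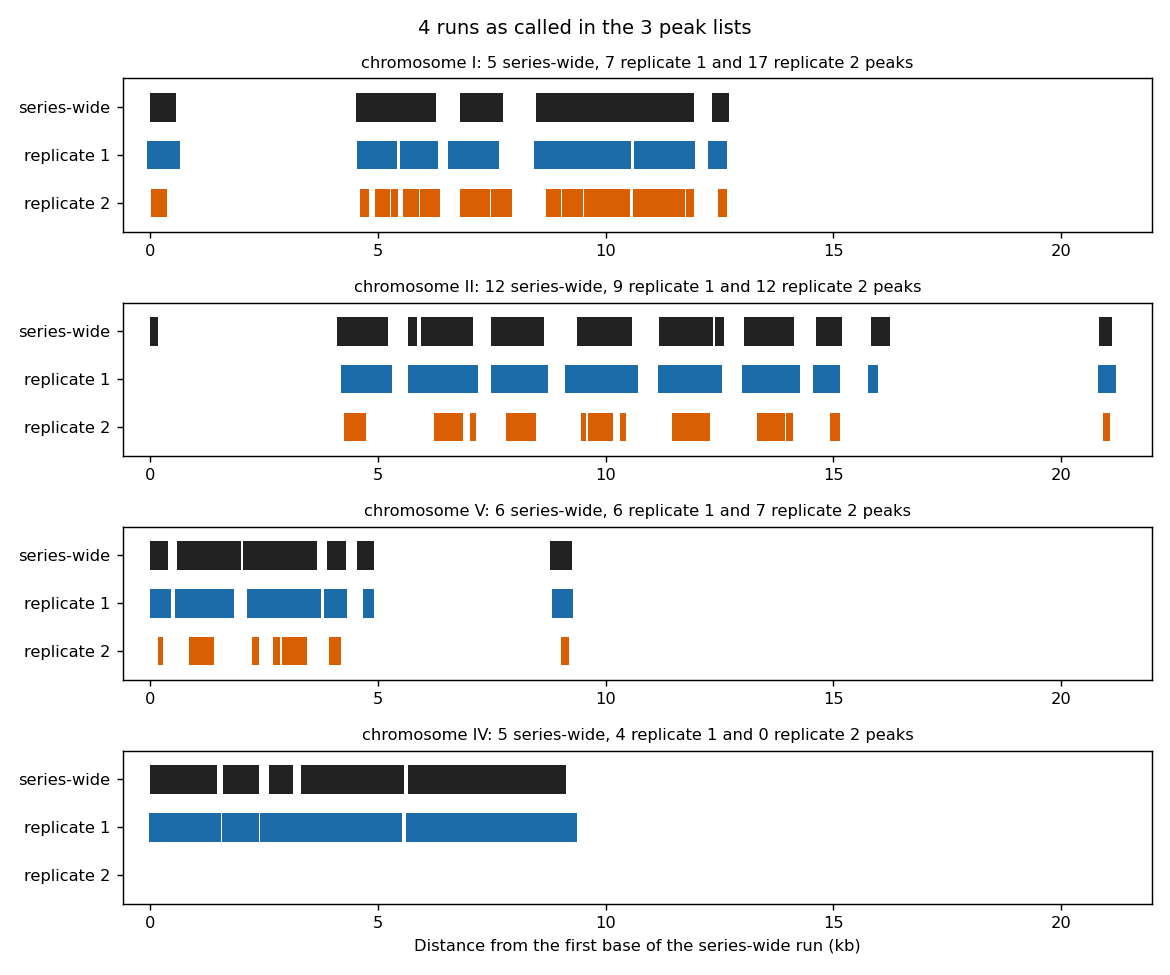
Peaks of the 3 lists (rows) in 4 series-wide runs, drawn to scale from the first base of each run (x axis, kb). The run on chromosome I is cut into 5, 7 and 17 peaks by the series-wide list, replicate 1 and replicate 2, and the run on chromosome IV has 5, 4 and 0.

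The share of peaks in runs did not follow the density of peaks on a chromosome. Chromosome V, with the lowest density at 46.1 peaks per Mb, had the most runs, 29, and 18.3% (16.0 to 20.9) of its peaks lay in them. Chromosome III, with 73.5 peaks per Mb, had the fewest, 17, and the lowest share, 10.8% (8.998 to 12.8). Chromosome II had the highest share, 21.5% (19.0 to 24.2) in 27 runs, or 19.3% without its run of 26. Chromosome I had 28 runs and 14.2% (12.3 to 16.4) of peaks, chromosome X 26 runs and 15.2% (13.3 to 17.3), and chromosome IV 20 runs and 12.0% (10.2 to 14.2). Peaks enter runs in sets and not singly, so these intervals are too narrow for comparing chromosomes. The numbers of runs also follow length, since chromosome V is the longest, at 20.9 Mb, and III the shortest, at 13.8 Mb. Per Mb there were from 1.14 runs on chromosome IV (exact Poisson 95% interval 0.698 to 1.77) to 1.86 on chromosome I (1.23 to 2.68). These 2 intervals overlapped. Chromosome V had 1.39 runs per Mb, below II (1.77) and X (1.47) as well as I, and III had 1.23, above IV. When neighbours within 500 bp were merged first, the shares were 12.2% on chromosome II, 9.77% on I, 9.36% on V, 7.50% on X, 6.62% on IV and 6.38% on III. Chromosome II was then still the highest and III the lowest, and chromosome I had moved ahead of V and X.

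**Figure D5:**
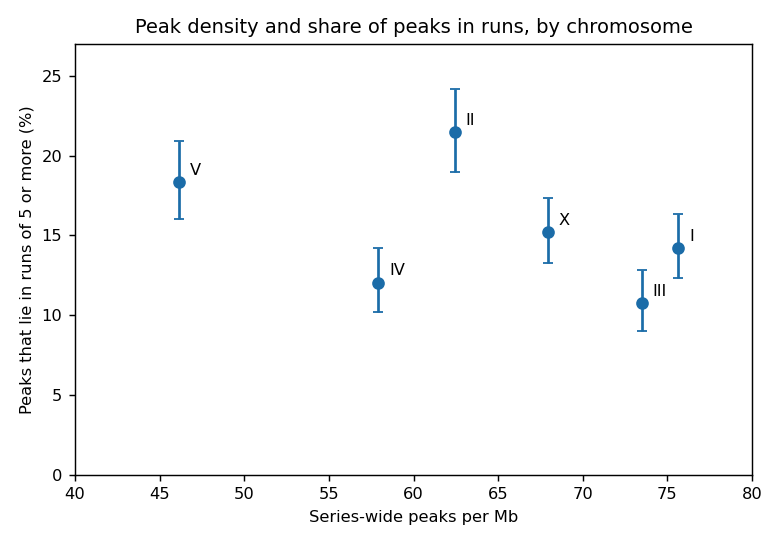
The percentage of a chromosome's series-wide peaks that lie in runs of 5 or more (y axis, with Wilson 95% intervals) against its peaks per Mb (x axis), with a point for each of the 6 chromosomes. Chromosome V has the lowest density, 46.1 peaks per Mb, and 18.3% of its peaks in runs, while chromosome III has 73.5 per Mb and 10.8%. Peaks enter runs in sets, so the intervals are too narrow.

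Chromosome X held 26 of the 147 runs, 17.7% (12.4 to 24.7), which matches its share of the length, 17.7%, and is close to its 19.1% share of peaks. Long runs were spread unevenly: X held 5 of the 13 runs of 10 or more, chromosome II held 6, and chromosomes IV and V had 1 each. On the autosomes, 53 of 121 runs, or 43.8% (35.3 to 52.7), had their midpoint in the central part when each autosome was cut into 3 equal parts. Of autosomal members 43.7% (40.3 to 47.3) lay there, where 39.5% of all autosomal peaks did, against 36.9% (34.7 to 39.0) of isolated ones. Peaks of 1 run share a position, so the interval for members is too narrow. The interval for runs included both 39.5% and 36.9%. In runs of 3, 45.5% of autosomal peaks lay in the central part. The chromosomes differed in the central share of members. The central part held 53.7% of members on chromosome I against 33.2% of isolated peaks, and 50.8% against 38.3% on V. On chromosome IV it held 20.5% of members and 37.6% of isolated peaks. These shares of members rested on few runs, with 14 central runs on chromosome I, 15 on V and 5 on IV.

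From the end of one run to the start of the next the median distance was 425039 bp (quartiles 194419 and 850780). Of neighbouring pairs, 3 were within 20 kb and 12 within 50 kb. These distances were not compared with a random placement of runs, so they do not show whether runs keep apart or together. The closest pair lay on chromosome II, where 7364 bp separated the run at 9258032 to 9274269 from the next. The bins of 1 Mb with the most runs, 5 each, were 7000001 to 8000000 of chromosome I and 4000001 to 5000000 of chromosome IV. They were picked after their values were seen.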

How the data were processed

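Peak lists from ChIP-seq of CBP-1 in mixed-stage N2 embryos were analysed: 1 per ChIP sample (2 samples) and 1 series-wide. Fixation was in 2% formaldehyde (30 minutes), and each ChIP took 2 mg of extract, per the labels' protocols. Per the submitters' processing notes, BWA and ce10 were used, with no version given. Coordinates are in WormBase WS220, per the file headers, and the source column names MACS for the replicates and MACS v2 for the series-wide list. The deposited score is the authors' peak score, and its scale, the calling threshold and any pooling are not stated in the labels or headers.

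Mitochondrial peaks were left out. Runs joined peaks with gaps of at most 5000 bp, with 5 or more peaks per run. A peak counted as present in a replicate at 1 bp of overlap. The furthest peak end over the 3 lists stood for the length of a chromosome. Intervals are 95% Wilson intervals for shares, Newcombe for their differences and exact Poisson for densities. They cover counting error only, and are too narrow where peaks of 1 run are counted singly. No test was made, since members were chosen from the same calls. Alternatives changed the join distance, run size, overlap rule, peaks used and list.

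The named runs are the 10 with the most peaks (the shorter span first in ties), the 5 of highest mean score, the 5 with the largest covered share, the longest, those with the 5 highest-scoring members and the largest on each chromosome. Members and rules were chosen with earlier results of these data known. Python 3.11.15, numpy 2.4.6, pandas 2.3.3, scipy 1.17.1 and matplotlib 3.10.9 were used. On simulated lists all planted runs were recovered. The planted gaps were set below the joining limit inside runs and far above it between them, so this checked the code only.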

Additional observations from a re-analysis of the deposited data

Results flagged for a closer look

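Outside the nuclear comparisons, the 11 mitochondrial peaks of the series-wide list formed 1 run by the same rule, from position 30 to position 12675, with scores from 4.42 to 43.0. Replicate 2 had 10 mitochondrial peaks in 1 run and replicate 1 had 1 peak. The level of the inputs there was not analysed here.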

How the results depend on the processing

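The number and share of runs follow the definition by construction. Against 147 runs and 15.2% of peaks, there were 82 runs (8.51%) with a join distance of 2500 bp, 304 (32.4%) with 10000 bp, 279 (23.6%) with at least 4 peaks and 28 (4.75%) with at least 8. There were 82 (8.58%) when neighbours within 500 bp were merged, 39 (6.96%) among peaks in a replicate list and 20 (3.69%) above the median score. Distances between midpoints gave 13.8% of peaks. The single replicate lists gave 21 to 26 runs and 5.19% to 7.17% of peaks. The lower score of members kept its sign in 10 of 12 alternatives; it was -12.0 points with at least 8 peaks and -9.20 among peaks in a replicate list, and reversed in the single replicate lists (4.25 to 12.8 points). The width difference kept its sign in all 12, was 21.2 points among peaks in a replicate list, and ran from 13.96 to 27.8 in the single lists. The difference in support by both replicates was negative in 12 of 13 alternatives, though only -0.70 points (-3.54 to 2.09) with a join distance of 10000 bp and -1.57 (-4.21 to 1.13) with at least 4 peaks, and it was 3.13 points (-5.90 to 12.5) among peaks above the median score. X held 11.5% (4.00 to 29.0) of the 26 runs of replicate 1 and 4.76% (0.846 to 22.7) of the 21 runs of replicate 2. Autosome centres held 30.4% (15.6 to 50.9) of runs with at least 8 peaks. They held 66.1% (57.3 to 73.9) when the centre was the middle 50%. In the single lists they held 52.2% (33.0 to 70.8) in replicate 1 and 25% (11.2 to 46.9) in replicate 2. The share of all peaks in the middle 50%, or in the centres for a single list, was not computed. These values therefore do not show an excess or a deficit of runs in the centres. The causes were not tested. Leaving out the runs of 26 and 18 peaks and counting each replicate peak once were chosen after seeing the data. No paired analysis was possible because no result compares groups of samples. Depth is unknown, so absence from a list does not show absence of binding.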
